A study of Homo sapiens with 19 samples.

Results

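The HOX genes of clusters A to D were followed through human liver organoids analysed by droplet single-cell RNA sequencing. They were taken as every gene whose symbol is HOX, a cluster letter from A to D and a number, which gave 39 of the 32703 genes listed in every library: 11 HOXA, 10 HOXB, 9 HOXC and 9 HOXD genes. The organoids were grown from the wild-type human pluripotent stem cell line W01 (WiCell) and sequenced with the 10x 3′ version 3 kit in 19 libraries of 9 groups. On ultra-low attachment plates (ULA), untreated organoids were taken at day 21 (3 libraries) and day 34 (2 libraries). On an orbital shaker, 7 groups of 2 libraries each were taken at day 25: untreated organoids, organoids given TGFB1 (10 ng/ml), PA (500 µM) or OA (500 µM), and a control group for each agent. TGFB1 and PA were added for 5 days after 20 days of culture. The duration of the OA treatment is not given in the sources used here, which also do not spell out the abbreviations PA and OA. The day 34 and shaker organoids had an additional wash and 10 min of trypsin before capture, a step that the day 21 organoids did not have, so that age and dissociation cannot be told apart between the ULA groups. All groups come from a single cell line, and nothing in the labels says that the libraries of a group came from separate cultures, so p-values measure the spread between these libraries, which may be technical.

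HOX genes encode homeodomain transcription factors that give cells a memory of their place along the head-to-tail axis. Each cluster is read in order: genes with low numbers are used early and in anterior tissue, and genes with high numbers later and in posterior tissue, the limb ends and the genital tubercle. Genes of the same number in different clusters are called paralogues, and PBX and MEIS proteins bind DNA beside HOX proteins as cofactors. Liver epithelium arises from foregut endoderm, while the ParaHox gene CDX2 marks hindgut and intestinal endoderm. In GENCODE 44 on GRCh38, the HOXA genes spanned chr7:27092993-27200091 on the minus strand, the HOXB genes chr17:48528526-48728750 on the minus strand, the HOXC genes chr12:53938831-54056030 on the plus strand and the HOXD genes chr2:176092721-176190907 on the plus strand. Exons of 8 members overlapped those of another member on the same strand, among them HOXB3 with HOXB4 and HOXD10 with HOXD11, and exons of 20 members were overlapped by a gene on the other strand. Strand cannot separate reads from exons shared on the same strand. Whether counting used strand is not given in the sources used here, so reads of genes on opposite strands may also be mixed.

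The HOXD cluster gave both the steepest difference between cell classes and HOXD1, the only member called higher in EPCAM-positive cells, so the starts of 5 of its genes are shown in cluster order. Each line is the 250 bases before the RefSeq start, 5′ to 3′ on the plus strand of chromosome 2 (GRCh38.p14): HOXD13 at chr2:176092471-176092720, HOXD11 at chr2:176107030-176107279, HOXD10 at chr2:176116528-176116777, HOXD8 at chr2:176129455-176129704 and HOXD1 at chr2:176188418-176188667. Capitals mark a match on either strand to a PBX-HOX word (TGATNNAT), a MEIS word (TGACAG) or a CDX word (TTTATNG), which do not overlap in these windows.
HOXD13: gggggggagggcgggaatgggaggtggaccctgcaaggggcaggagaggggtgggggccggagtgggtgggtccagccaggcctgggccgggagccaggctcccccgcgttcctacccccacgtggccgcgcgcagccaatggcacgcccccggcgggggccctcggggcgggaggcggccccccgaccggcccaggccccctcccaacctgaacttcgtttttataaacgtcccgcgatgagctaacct
HOXD11: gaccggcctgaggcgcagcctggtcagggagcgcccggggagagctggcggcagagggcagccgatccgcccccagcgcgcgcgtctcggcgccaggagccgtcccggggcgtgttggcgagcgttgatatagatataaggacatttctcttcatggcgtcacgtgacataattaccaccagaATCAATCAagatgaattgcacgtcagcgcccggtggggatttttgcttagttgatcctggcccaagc
HOXD10: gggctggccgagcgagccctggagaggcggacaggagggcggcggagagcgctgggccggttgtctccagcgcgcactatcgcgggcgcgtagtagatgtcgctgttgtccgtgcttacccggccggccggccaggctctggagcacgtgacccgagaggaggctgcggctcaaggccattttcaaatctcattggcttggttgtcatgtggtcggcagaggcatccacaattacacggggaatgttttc
HOXD8: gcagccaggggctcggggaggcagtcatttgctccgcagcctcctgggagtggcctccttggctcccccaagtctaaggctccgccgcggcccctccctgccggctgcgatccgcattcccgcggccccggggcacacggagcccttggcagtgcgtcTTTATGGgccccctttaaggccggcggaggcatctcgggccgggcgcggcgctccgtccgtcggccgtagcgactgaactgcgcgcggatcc
HOXD1: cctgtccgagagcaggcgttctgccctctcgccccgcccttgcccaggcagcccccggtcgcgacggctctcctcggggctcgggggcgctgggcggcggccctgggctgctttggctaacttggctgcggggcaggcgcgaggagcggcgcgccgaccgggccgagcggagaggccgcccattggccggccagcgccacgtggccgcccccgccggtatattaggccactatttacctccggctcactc
HOXD11 held a PBX-HOX word and HOXD8 a CDX word, and none of the 3 words was found in the other windows printed. RefSeq windows were found for 20 of the 39 members, 26 windows in all. HOXA3 had several of them, HOXC4 and HOXC5 had the same window, and HOXB1 was the only HOXB gene present. The shares that follow are thus of windows and not of members. The PBX-HOX word was in 3 of the 26 and in 6.47% of all 35116 windows, the MEIS word in 2 of 26 and in 13% of all, and the CDX word in 6 of 26 and in 8.93% of all.

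Libraries held 3438 to 13345 barcodes and 7476533 to 92522222 unique molecules (UMIs). Only cells with 500 genes or more and a mitochondrial share of 20% or less entered the sums, which left 3089 to 12427 cells per library, with a median of 1310 to 14300 UMIs per cell. Values are CPM, the usual depth-scaled UMI count of a gene, from the UMIs summed over the cells of a library or of a class, and they were not scaled by gene length, so levels of different genes are compared only loosely. A cell was called EPCAM-positive with at least 1 UMI of EPCAM, an epithelial adhesion gene, and none of the fibroblast collagens COL1A2 and COL3A1, and collagen-positive with the reverse. Cells with both made up 1.93% to 59.7% of a library and cells with neither 0.301% to 44.7%, and both kinds were left out of the classes. Doublets were not called in the main analysis. In EPCAM-positive cells 8 epithelial markers summed to 3730 to 9400 CPM and 9 mesenchymal markers to 22 to 415 CPM, and in collagen-positive cells of at least 50 cells per library the sums were 739 to 4230 and 1250 to 6760 CPM. Fewer than 50 cells were found in the EPCAM-positive class of ULA day 34 replicate 1 (23 cells) and the collagen-positive class of OA replicate 2 (38 cells), which leaves 17 libraries with both classes. No pair of libraries shared more than 43 barcodes.

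Both classes used HOX genes, with more HOX RNA and more members at high levels in collagen-positive cells. In classes of at least 50 cells, all HOX genes together reached 243 to 521 CPM in collagen-positive cells and 31.2 to 382 CPM in EPCAM-positive cells. In collagen-positive cells 24 members reached 10 CPM in a library, and in EPCAM-positive cells 10 of the same 24 did. The other 15 members stayed at or below 7.58 CPM in collagen-positive and 6.23 CPM in EPCAM-positive cells. HOXC12 had no UMI in either class.

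**Figure D1:**
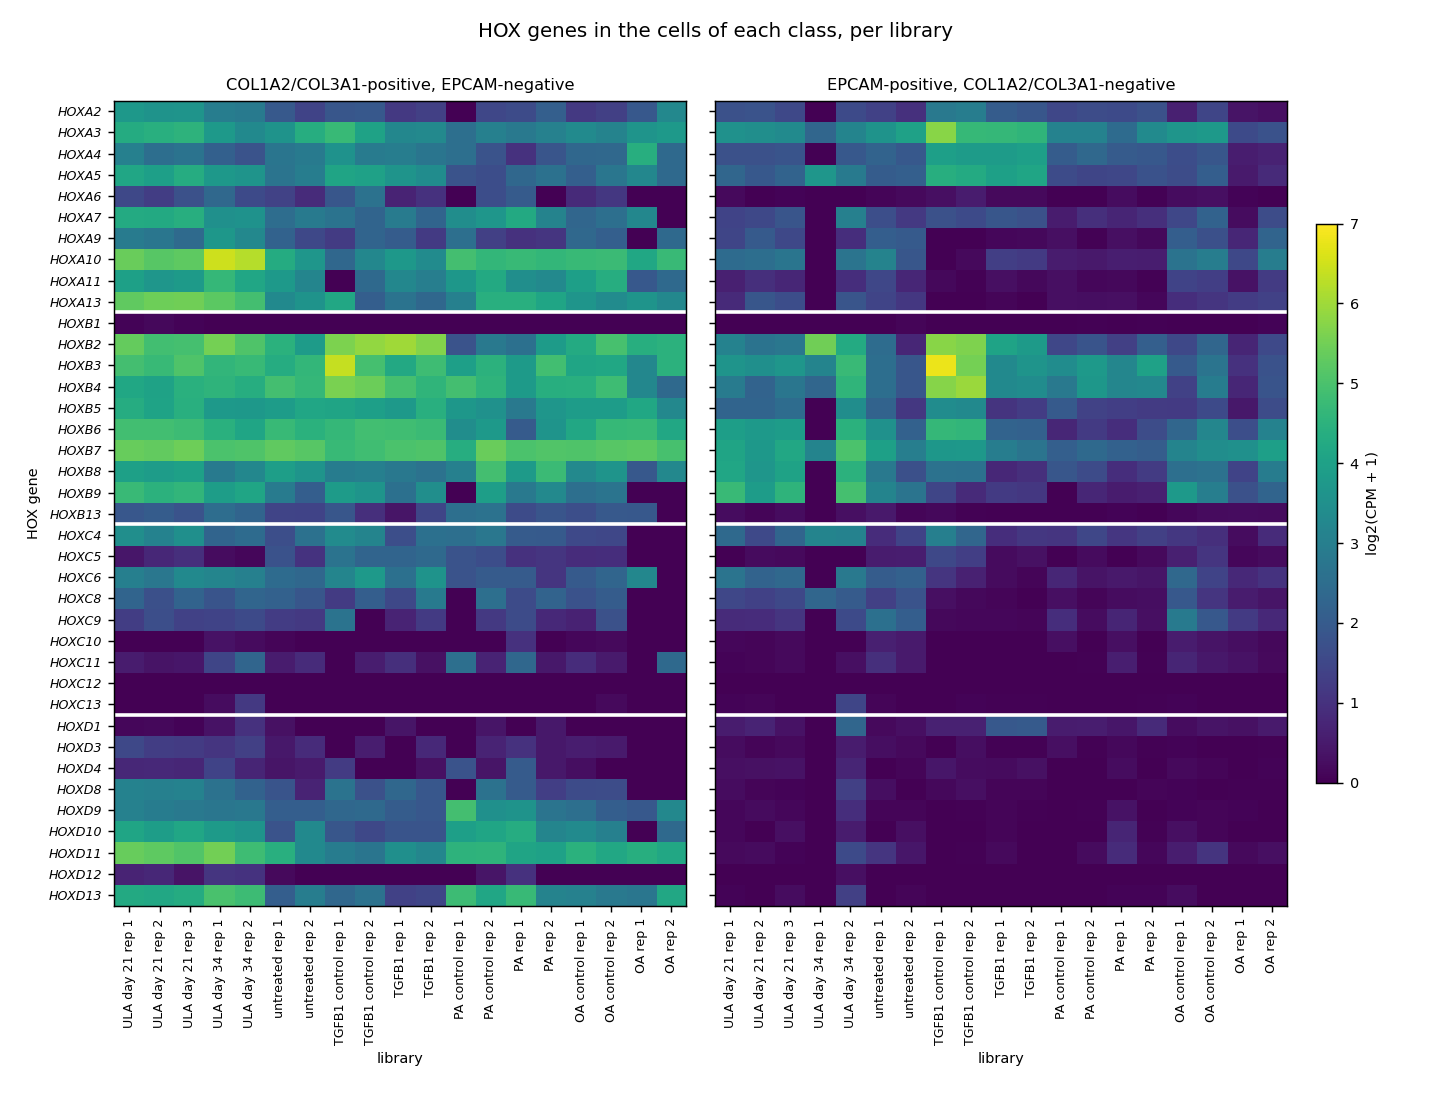
Level of the HOX genes, as log2(CPM + 1), in collagen-positive cells (left) and EPCAM-positive cells (right) of the 19 libraries, with white lines between the clusters. HOXD9 to HOXD11 and HOXD13 are bright on the left and near 0 on the right, and HOXB2 to HOXB4 are brightest on the right in the TGFB1 control libraries; the class columns of ULA day 34 replicate 1 (23 EPCAM-positive cells) and OA replicate 2 (38 collagen-positive cells) rest on few cells.

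Among the HOXA genes, the anterior members had overlapping ranges in both classes. HOXA3, which shapes the thymus and parathyroids, ran from 4.86 to 25.5 CPM (median 10.2) in collagen-positive cells and from 2 to 52.7 CPM (median 10.3) in EPCAM-positive cells, highest in TGFB1 control replicate 1. HOXA5, a regulator of lung development, ran from 2.13 to 19.3 CPM against 0.42 to 20 CPM, and HOXA4 from 1.01 to 19.8 CPM against 0.48 to 14.5 CPM. HOXA2, a hindbrain gene, stayed at or below 12.3 CPM in both classes. The posterior HOXA genes had higher medians in collagen-positive cells. HOXA10, which patterns the uterus, reached 86.9 CPM (median 24.5) in collagen-positive cells and at most 7.73 CPM (median 2.25) in EPCAM-positive cells. HOXA13, needed for digits and the lower urogenital tract, had medians of 13.9 and 0.827 CPM, and HOXA11, needed for the forearm, 12 and 0.391 CPM. HOXA7 had medians of 8.11 and 1.93 CPM and HOXA9, a blood progenitor gene, 3.47 and 0.778 CPM.

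The HOXB cluster held 33.1% to 66.3% of HOX UMIs in collagen-positive cells and 35.5% to 73.1% in EPCAM-positive cells. HOXB7 had the narrowest relative range of the 24 members in collagen-positive cells, from 19.4 to 43.1 CPM, and in EPCAM-positive cells it lay between 3.22 and 31.5 CPM. HOXB2, HOXB3 and HOXB4, of which the first patterns the hindbrain and the last expands blood stem cells, had collagen-positive medians of 29, 23.5 and 22.3 CPM. Their EPCAM-positive medians were 4.22, 9.98 and 6.62 CPM, but their highest values there were 53.4, 111 and 60.5 CPM, all in TGFB1 control libraries. HOXB6 had medians of 24.5 and 5.78 CPM, HOXB5 of 13.6 and 2.02 CPM, HOXB8 of 10 and 4.96 CPM, and HOXB9 of 9.47 and 3.07 CPM. In EPCAM-positive cells HOXB7, HOXB8 and HOXB9 were highest in ULA day 34 replicate 2, at 31.5, 21.7 and 29.7 CPM.

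Few HOXC genes reached 10 CPM: HOXC4 had medians of 4.66 and 1.35 CPM and HOXC6 of 5.42 and 1.08 CPM in collagen-positive and EPCAM-positive cells. The HOXD genes split by number. HOXD11, a forearm and kidney gene, ran from 5.65 to 44.7 CPM (median 20.1) in collagen-positive cells and from 0 to 1.97 CPM (median 0.144) in EPCAM-positive cells. HOXD10 had medians of 9.11 and 0.0113 CPM, and HOXD13, mutated in digit malformations, 7.61 and 0 CPM. HOXD9 had medians of 5.21 and 0.0534 CPM. HOXD1 was the exception, detected in EPCAM-positive cells of all 18 libraries with at least 50 such cells (0.131 to 3.94 CPM) and in collagen-positive cells of 9 of 18 (at most 0.991 CPM). Detection at such low levels also depends on the depth of the class sums.

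Shares of the HOX UMIs showed the same split. The HOXD cluster held 5.85% to 33.1% of HOX UMIs in collagen-positive cells, and in EPCAM-positive cells 0.262% (TGFB1 control replicate 1) to 5.29% (PA replicate 1). Paralogues 9 to 13 held 14.6% to 54.2% of HOX UMIs in collagen-positive cells, the highest share from 118 HOX UMIs in PA control replicate 1. In EPCAM-positive cells of ULA day 21 they held 23.5%, 22.4% and 24.4%, in untreated shaker organoids 27.8% and 24.7%, in OA controls 37.8% and 24.5%, and with OA 27.5% and 28.4%. In the TGFB1 and PA experiments the same share was smaller: 0.553% and 0.403% in TGFB1 controls, 3.06% and 2.48% with TGFB1, 4.57% and 2.93% in PA controls, and 10.3% and 2.79% with PA. Each agent was compared with its own control only, and the untreated, TGFB1 control and PA control groups were not tested against each other.

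**Figure D2:**
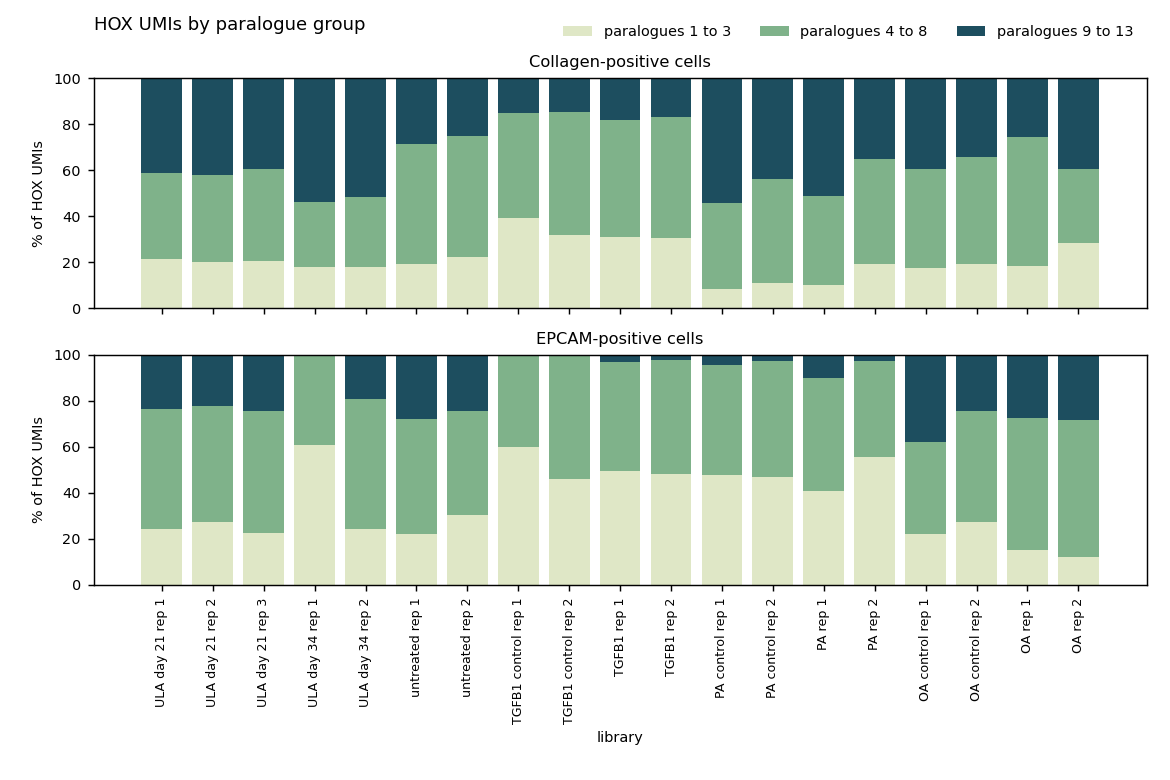
Share of all HOX UMIs (percent) from paralogues 1 to 3, 4 to 8 and 9 to 13 in collagen-positive (top) and EPCAM-positive cells (bottom), 1 bar per library. The dark top segment, paralogues 9 to 13, is between 14.6% and 54.2% in every collagen-positive bar, and in EPCAM-positive cells is 0.553% and 0.403% in the TGFB1 controls but 27.8% and 24.7% in untreated organoids.

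The share of cells with any HOX UMI also had a higher range in collagen-positive cells. It was 37.6% to 97.6% of collagen-positive and 9.89% to 68.9% of EPCAM-positive cells before depth was equalised. After each cell was thinned to 2000 UMIs and shallower cells were left out (6 to 967 collagen-positive and 27 to 3064 EPCAM-positive cells per library), it was 29.5% to 63.8% and 6.34% to 46.3%. In the TGFB1 controls the thinned EPCAM-positive shares, 46.3% and 40.6%, were next to collagen-positive shares of 45.9% and 49.6%, so that in replicate 1 the EPCAM-positive share was slightly the higher. Among thinned cells, HOXD9 was found in 0% to 0.147% of EPCAM-positive and 0.521% to 3.25% of collagen-positive cells, and HOXB2 in 0.107% to 10% and 0% to 12.2%. The part of free RNA in these shares was not tested. Median depth per cell was 1552 to 17540 UMIs in EPCAM-positive and 1320 to 13180 UMIs in collagen-positive cells.

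Within the same 17 libraries, 29 of 36 tested HOX genes differed between the classes, 28 higher in collagen-positive cells and HOXD1 higher in EPCAM-positive cells (edgeR's quasi-likelihood test with library as a block, Benjamini-Hochberg adjusted over all genes). Of all 18191 genes 62.9% were called, 27.7% higher and 35.2% lower in collagen-positive cells. The median log2 fold change was 1.78 over the HOX genes tested and -0.05 over all genes. HOXD8, HOXD9, HOXD10, HOXD12 and HOXD13 had EPCAM-positive medians of at most 0.0632 CPM. They passed the filter on low counts through collagen-positive cells, so a call of these genes could only be higher there. HOXC10 did not pass that filter. The 28 higher calls and the median of 1.78 thus depend in part on it. DESeq2 also called 29 members. The classes were defined without HOX genes. Not every library had the direction of the call. HOXD4 was higher in collagen-positive cells in 12 libraries and lower in 4, and HOXA5 in 13 and 4. HOXB3, HOXB4, HOXB8 and HOXC8 were each higher in 14 and lower in 3.

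The difference was larger at high paralogue numbers in HOXA and HOXD. HOXD13 was 7.09 higher in collagen-positive cells log2 units (SE 0.41, edgeR adjusted p = 9.22e-12), with a higher collagen-positive value in 17 of 17 libraries. HOXD10 was 6.30 higher (SE 0.38), HOXD9 5.91 (SE 0.35), HOXD11 5.88 (SE 0.40) and HOXD8 4.90 (SE 0.45). HOXD11 and HOXD9 were higher in 17 of 17 libraries and HOXD10 in 16, with HOXD10 at 0 in both classes of the other. HOXD12, a low-level gene, differed by 3.91 (SE 0.62), HOXD3 by 2.66 (SE 0.35) and HOXD4 by 1.43 (SE 0.50). HOXD1, at the anterior end of the same cluster, was 2.33 lower in collagen-positive cells (SE 0.38, edgeR adjusted p = 2.11e-05) and was higher in EPCAM-positive cells in 16 of 17 libraries. At its low level a shallow class sum can hold no UMI, so the count of libraries is weak support for the direction.

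In the HOXA cluster the difference was 4.46 for HOXA13 (SE 0.41), 4.44 for HOXA11 (SE 0.37), 3.51 for HOXA6 (SE 0.38), 3.23 for HOXA10 (SE 0.36), 2.05 for HOXA7 (SE 0.32), 1.72 for HOXA9 (SE 0.51) and 0.73 for HOXA5 (SE 0.24). HOXA2, HOXA3 and HOXA4 did not pass, with estimates of 0.52, -0.20 and 0.22 and 95% intervals of -0.13 to 1.17, -0.60 to 0.19 and -0.39 to 0.83. The HOXB genes formed a plateau: HOXB2 to HOXB8 differed by 1.00 (HOXB3, SE 0.22) to 2.31 (HOXB5, SE 0.28), and HOXB7, the most abundant, by 1.76 (SE 0.20). HOXB13, a prostate and tail bud gene, stood apart at 4.51 (SE 0.42), while HOXB9 did not pass (0.89, SE 0.50). HOXC4, HOXC5, HOXC6, HOXC8 and HOXC11 were 1.04 to 2.24 higher in collagen-positive cells, and HOXC9 and HOXC13 did not pass (0.21 and -0.83). HOXB8 was -0.51 in the ULA experiment alone, HOXA5 -0.28 in the TGFB1 experiment alone and HOXC11 -0.13 in the OA experiment alone.

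**Figure D3:**
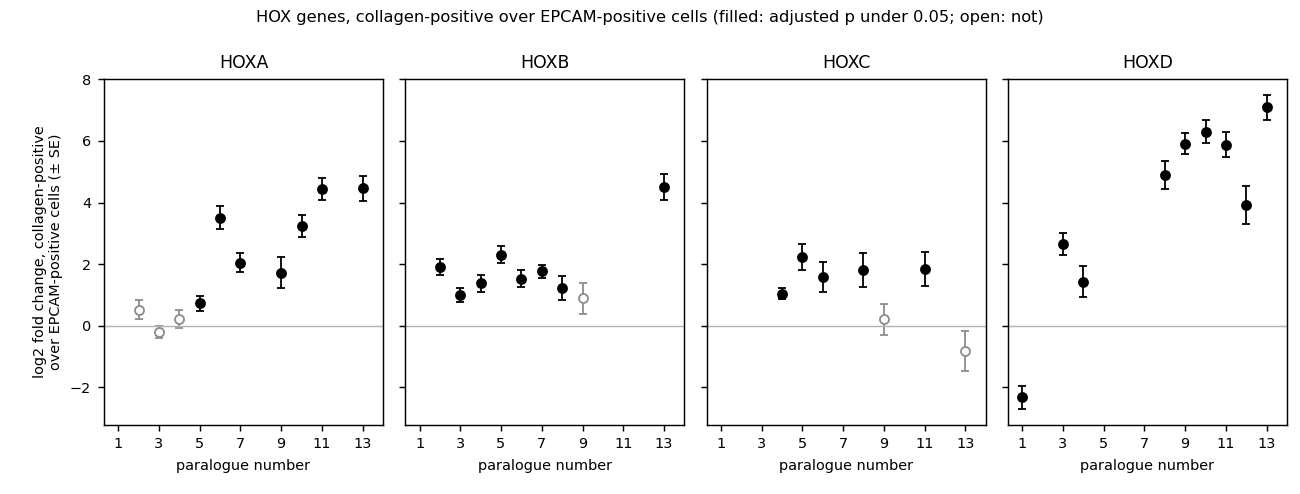
Log2 fold change of collagen-positive over EPCAM-positive cells within 17 libraries, with SE, by paralogue number, 1 panel per cluster. HOXA goes from -0.20 (HOXA3) to 4.46 (HOXA13) without a steady rise, with HOXA6 (3.51) above HOXA7 (2.05) and HOXA9 (1.72). HOXD goes from below 0 at HOXD1 to 7.09 (HOXD13), HOXB2 to HOXB8 lie between 1.00 and 2.31, and filled points passed an adjusted p of 0.05.

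Across members, Spearman's rho between the fold change and the paralogue number was 0.891 in HOXA (11 genes), 0.767 in HOXD (9 genes), 0.0167 in HOXB (9 genes) and -0.357 in HOXC (7 genes). These are descriptions, since all members were measured in the same libraries. By position, the median log2 fold change of the tested members was 0.52 for paralogues 1 to 3, 1.59 for 4 to 8 and 4.18 for 9 to 13. The last group held genes that entered the test through collagen-positive cells, such as HOXD12 and HOXD13, with EPCAM-positive medians of 0 CPM. HOXC10, higher in EPCAM-positive cells in 9 libraries and in collagen-positive cells in 2, was not tested. The medians thus depend in part on the filter on low counts. The EPCAM-positive level was in the median library 0% of the collagen-positive level for HOXD13, 0.405% for HOXD10, 0.664% for HOXD11 and 1.41% for HOXD9. The 9 mesenchymal markers gave 0.295% (COL6A3) to 1.39% (LUM) by the same measure, with single-library values of up to 21% for LUM, in OA replicate 1, and 37.1% for DCN, in ULA day 34 replicate 2. HOXA10 at 10.9%, HOXB2 at 24.8%, HOXB7 at 27.9% and HOXA3 at 104% lay above the markers' medians.

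Related genes, in lists chosen with results of these data known, split in part the same way. Most genes of any kind were called in this test, as given above, so the counts alone do not set the lists apart. Of 9 HOX cofactors tested 6 were higher in collagen-positive cells, among them MEIS2 (0.92, SE 0.29), MEIS3 (2.62, SE 0.27) and PBX3 (2.14, SE 0.24), and PBX2 was lower (-0.24, SE 0.06). The ParaHox genes PDX1, CDX1 and CDX2 were all lower, by 4.61 to 5.39 on the log2 scale. Of 11 genes of retinoic acid supply and reception, the signal that opens HOX clusters in the embryo, 7 were higher, led by CRABP1 (5.73, SE 0.50) and CRABP2 (3.28, SE 0.33), and ALDH1A1, which makes retinoic acid, was lower (-3.42, SE 0.40). Among 19 Polycomb and trithorax genes, which keep HOX genes silent or active, 5 were higher and 6 lower. Of 13 noncoding RNAs of the clusters 8 were higher, including HOXD-AS2 (3.21, SE 0.30) and HOXA11-AS (3.72, SE 0.41), and 1 was lower. Median log2 fold changes of these 5 lists were 0.92, -5.28, 1.37, 0.05 and 1.51.

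TGFB1, a cytokine that drives fibrosis, was compared with its control to ask what it did to organoid cells. In EPCAM-positive cells the anterior and central HOXB genes and neighbouring HOXC genes fell, and HOXD1 and HOXA10 rose. All HOX genes together stood at 382 and 282 CPM in the 2 TGFB1 control libraries and at 114 and 114 CPM with TGFB1. Of 27 tested members 12 were called, 2 higher and 10 lower, where 25.0% of all genes were called, 12.3% higher and 12.7% lower. The median log2 fold change was -0.47 over members and -0.06 over all genes, and DESeq2 called 11 members.

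HOXB3, a hindbrain and pharyngeal gene, stood at 111 and 45.8 CPM in control EPCAM-positive cells and at 9.01 and 11.3 CPM with TGFB1, a fall by 2.70 log2 units (SE 0.43, edgeR adjusted p = 0.000455). HOXB4 went from 52.1 and 60.5 CPM to 9.04 and 9.68 CPM, and fell by 2.40 (SE 0.51, edgeR adjusted p = 0.00377). HOXB6 went from 24.2 and 23.3 CPM to 3.73 and 3.53 CPM, and fell by 2.51 (SE 0.54, edgeR adjusted p = 0.00404). In each of these genes both control libraries were above both TGFB1 libraries. HOXB2 went from 53.4 and 49.2 CPM to 15.6 and 13.2 CPM, a fall by 1.63 (SE 0.51, edgeR adjusted p = 0.0314), and HOXB7 from 12.1 and 12.3 CPM to 6.83 and 5.41 CPM, a fall by 0.81 (SE 0.28, edgeR adjusted p = 0.0461). HOXB5 went from 9.67 and 9.05 CPM to 1.08 and 1.38 CPM, and HOXB8 from 5.23 and 5.08 CPM to 0.727 and 0.907 CPM. HOXC4, HOXC5 and HOXC6, from the matching stretch of the HOXC cluster, fell by 2.15, 2.83 and 2.47 on the log2 scale. HOXB2 to HOXB8 were thus all lower than in the TGFB1 controls, while HOXB9 stood at 1.78 and 0.785 CPM against 1.26 and 1.21 CPM. Outside the TGFB1 controls, HOXB2, HOXB3 and HOXB4 were at 15.6 CPM or lower in every shaker library. PA controls had means of 2.17, 11.3, 9.08 and 0.987 CPM for HOXB2, HOXB3, HOXB4 and HOXB6 in these cells. For these genes the TGFB1 libraries lay near or above the PA controls, and the TGFB1 controls stood apart. Why they stood apart was not tested.

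HOXD1 moved the other way, from 0.556 and 0.567 CPM to 2.78 and 2.96 CPM, a rise of 2.50 log2 units (SE 0.44, edgeR adjusted p = 0.00106). These are 5 and 26 UMIs in the control libraries and 88 and 88 with TGFB1. HOXA10 had 0 and 6 UMIs in controls and 46 and 38 with TGFB1 (0 and 0.131 CPM against 1.45 and 1.28 CPM), a rise of 3.76 (SE 0.83, edgeR adjusted p = 0.00487). With TGFB1 it stayed below the levels of the untreated and OA groups, as the plot of EPCAM-positive levels shows. HOXA3 to HOXA5 did not pass: HOXA5, for example, stood at 20 and 18.3 CPM against 14.8 and 16.3 CPM. The HOXA share of HOX UMIs was 26.4% and 24.2% in controls and 54.2% and 54.7% with TGFB1, and the HOXB share 70.6% and 73.1% against 41.6% and 41%.

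**Figure D4:**
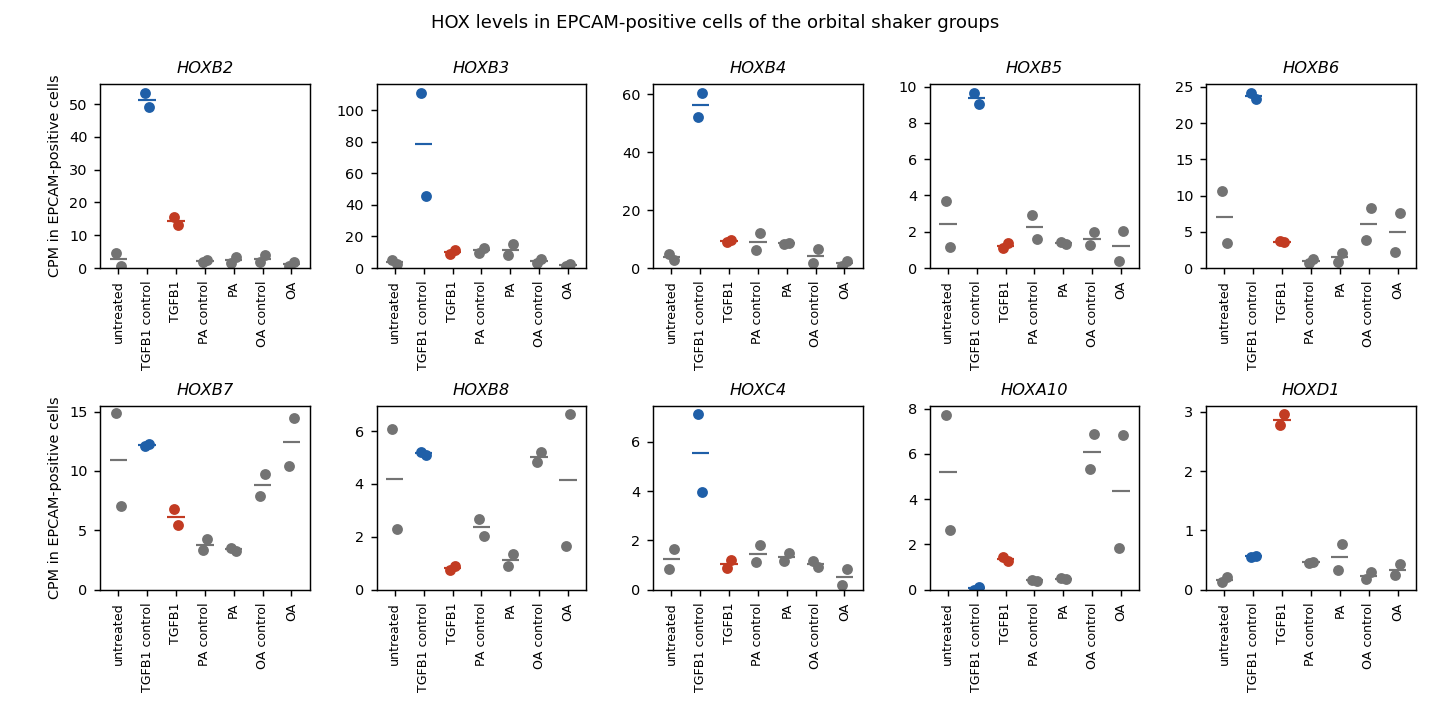
CPM of 10 HOX genes in EPCAM-positive cells of the 7 orbital shaker groups, 1 point per library and a line at the mean of 2, with TGFB1 controls in blue and TGFB1 in red. HOXB2, HOXB3 and HOXB4 stand at 45.8 CPM or higher in the TGFB1 controls and at 15.6 CPM or lower in all other libraries, and HOXD1 is highest with TGFB1 (2.78 and 2.96 CPM).

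In whole libraries, where fewer cells of a type and less RNA per cell cannot be told apart, 10 of 35 tested members were called after TGFB1, 4 higher and 6 lower (22.2% of all genes, 10.9% higher and 11.3% lower). Members had a median log2 fold change of -0.03 and all genes one of -0.05, and DESeq2 called 12. HOXB3, HOXB4, HOXB5, HOXB6, HOXB8 and HOXC4 fell, by 1.34 to 2.42 on the log2 scale. HOXA10, HOXA11, HOXD1 and HOXD11 rose, by 2.50, 2.35, 2.51 and 1.92. In collagen-positive cells edgeR called 0 of 30 members (0.0211% of all genes), with 3 at an unadjusted p under 0.05, 0 by DESeq2 and 2 called without TGFB1 control replicate 2. There HOX genes together stood at 407 and 338 CPM in controls and 295 and 299 CPM with TGFB1, and the median log2 fold change was -0.16 over members and 0.00 over all genes. Few genes of any kind were called in this class, so the lack of HOX calls does not show that these genes were unchanged.

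The TGFB1 effect differed between the classes for 9 of 29 tested members in the test of the difference itself, with library as a block (6.14% of all genes, 2.04% in the direction of a higher effect in collagen-positive cells and 4.09% lower). For HOXB2 to HOXB8 and HOXC5 the log2 effect was 1.27 (HOXB7) to 3.07 (HOXB5) higher in collagen-positive cells, and for HOXA10 it was 3.11 lower. The calls of HOXB3, HOXB7, HOXB8, HOXC5 and HOXA10 were each lost without at least 1 library, with edgeR adjusted p of up to 0.0626, 0.296, 0.236, 0.314 and 0.212, and those of HOXB2, HOXB4, HOXB5 and HOXB6 held. The median of this difference was 0.25 over members and -0.06 over all genes, and DESeq2 called 6. Among related genes in EPCAM-positive cells, 4 of 9 cofactors fell, among them PBX2, MEIS1 (by 1.33) and PBX4, CDX1, CDX2 and PDX1 fell by 1.12 to 2.00, and 7 of 19 Polycomb and trithorax genes fell and none rose. Of 10 retinoic acid genes 2 rose (ALDH1A3 by 3.08, CRABP2 by 1.51) and 2 fell (ALDH1A1 by 2.21, ALDH1A2 by 3.72), and of 10 cluster noncoding RNAs HOTAIRM1, HOXB-AS1 and HOXB-AS3 fell. The share of all genes that belongs beside these list counts is that of the EPCAM-positive test above, not the 6.14% of the difference between classes.

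Beside these changes, the mesenchymal markers in EPCAM-positive cells summed to 44.2 and 22 CPM in controls and 358 and 415 CPM with TGFB1. COL1A1 made up 33.5 and 17.2 CPM of the control sums and 348 and 405 CPM with TGFB1, and LUM, DCN, PDGFRA and the other 5 were at or below 4 CPM in all 4 libraries. Hepatocyte markers moved apart: SERPINA1 went from 1620 and 2830 CPM to 5740 and 4780 CPM, while AFP went from 607 and 465 CPM to 93.3 and 106 CPM, TTR from 391 and 581 CPM to 190 and 229 CPM, and FGB and ALB were also lower in both TGFB1 libraries. Gut markers summed to 364 and 309 CPM in controls and to 165 and 178 CPM with TGFB1. Squamous markers summed to 0.445 and 0.786 CPM in controls and to 12.9 and 14.4 CPM with TGFB1, of which TP63 made up 11.6 and 13.4 CPM. Neural markers summed to 54.2 and 42.7 CPM against 114 and 88.8 CPM, with STMN2 at 14.3 and 16.9 CPM against 79.9 and 56.2 CPM, and TGFB1 control replicate 1 was shallow (median 1310 UMIs per cell, 44.7% of cells with neither class marker). Their part in the HOX changes was not tested. Without TGFB1 control replicates 1 and 2 and TGFB1 replicates 1 and 2 in turn, the whole-library count was 3, 5, 4 and 5. In EPCAM-positive cells the calls of HOXB2, HOXB5, HOXB7, HOXB8, HOXC4, HOXC5 and HOXC6 were each lost without at least 1 library, and those of HOXB3, HOXB4, HOXB6, HOXD1 and HOXA10 held throughout. The EPCAM-positive count was 5 without TGFB1 replicate 1 and 8 to 11 without the others, and the count for the difference between classes was 5 without TGFB1 replicate 1 and 4 without TGFB1 replicate 2.

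PA gave no HOX call in any of the 4 tests. In EPCAM-positive cells all HOX genes stood at 49.2 and 60.7 CPM in PA controls and at 46.1 and 60.1 CPM with PA, and in collagen-positive cells at 287 and 345 CPM against 281 and 282 CPM. The groups overlapped in the epithelial class. EdgeR called 0 of 35 members in whole libraries (0.0465% of all genes), 0 of 30 in collagen-positive cells (0%), 0 of 27 in EPCAM-positive cells (0.103%) and 0 of 26 for the difference between the classes (0.291%). At an unadjusted p under 0.05 the counts were 0, 0, 0 and 1, and DESeq2 called 0 in each. Medians of the log2 fold change were -0.22, -0.37, 0.08 and -0.43 over members and 0.02, 0.01, 0.02 and 0.00 over all genes. Few genes of any kind were called, so these libraries give no measure of how HOX genes compare with others here.

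OA control and untreated organoids, neither labelled as given OA, gave no HOX call either. The labels do not say whether the OA controls were given anything in its place. In collagen-positive cells all HOX genes stood at 270 and 302 CPM in OA controls and 293 and 272 CPM in untreated organoids, and in EPCAM-positive cells at 85.8 and 96.4 CPM against 110 and 71.9 CPM, with overlapping ranges in both classes. EdgeR called 0 of 35 members in whole libraries (0.573% of all genes), 0 of 30 in collagen-positive cells (0.0352%) and 0 of 27 in EPCAM-positive cells (1.29%). At an unadjusted p under 0.05 the counts were 0, 3 and 0, and DESeq2 called 0 in each. Medians of the log2 fold change were 0.12, 0.07 and 0.13 over members and 0.03, 0.02 and 0.01 over all genes. Few genes of any kind were called here too, so these tests give little measure of how HOX genes compare with others. The OA control libraries are also the controls of the OA comparison.

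With OA, HOX RNA was lower across all clusters in whole libraries, and within EPCAM-positive cells anterior HOXA genes, several HOXC genes and HOXB9 fell. All HOX genes stood at 130 and 172 CPM in whole OA control libraries and at 36.1 and 67.7 CPM with OA. Of 35 tested members 22 fell and none rose, where 43.3% of all genes were called and 21.6% were lower. The members' median log2 change was -1.60, against -0.08 over all genes, and DESeq2 called 21. OA libraries held few collagen-positive cells: 60 and 38, or 1.94% and 1.18% of cells, against 1927 and 1160, or 35.3% and 37.5%, in OA controls.

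The posterior HOXD genes of collagen-positive cells were close to 0 in the whole OA libraries. HOXD10 had 107 and 120 UMIs in OA controls and 0 and 1 with OA, HOXD13 92 and 95 against 2 and 5, and HOXD9 61 and 63 against 3 and 2. HOXD11 stood at 4.91 and 6.05 CPM in controls and at 0.278 and 0.288 CPM with OA, a fall by 3.92 log2 units (SE 0.48, edgeR adjusted p = 4.22e-05). HOXB2 went from 6.53 and 14.6 CPM to 1.35 and 2.3 CPM, and fell by 2.17 (SE 0.50). HOXB4 went from 6.66 and 14.5 CPM to 1.19 and 2.61 CPM, and fell by 2.11 (SE 0.41). Of the other members called, HOXB3, HOXB5, HOXA3, HOXA4, HOXA5, HOXA11 and HOXC6 fell by 1.41 to 2.46, and HOXA2 also fell. HOXB7 did not pass, at 14.6 and 21.4 CPM against 11 and 15 CPM.

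Within EPCAM-positive cells, which made up 88.4% and 88.4% of OA cells and 32.4% and 23.1% of OA control cells, 11 of 27 tested members were called, 1 higher and 10 lower. Of all genes 35.9% were called, 19.1% higher and 16.8% lower. The median log2 fold change was -1.04 over members and -0.07 over all genes, and DESeq2 called 11. All HOX genes stood at 85.8 and 96.4 CPM in controls and at 31.2 and 65.7 CPM with OA. HOXA3 went from 11.5 and 12.8 CPM to 2 and 2.39 CPM, a fall by 2.23 log2 units (SE 0.35, edgeR adjusted p = 0.000341). HOXA4 went from 2.13 and 2.65 CPM to 0.48 and 0.576 CPM, a fall by 1.93 (SE 0.26, edgeR adjusted p = 0.000107). HOXA5 went from 2.09 and 3.25 CPM to 0.42 and 0.782 CPM, a fall by 1.88 (SE 0.31, edgeR adjusted p = 0.000489), and HOXA2 fell by 1.79. For these 4 anterior HOXA genes both OA libraries lay below both controls.

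HOXC9, a trunk gene, went from 6.23 and 2.8 CPM to 1.28 and 0.761 CPM in EPCAM-positive cells, a fall by 1.96 (SE 0.53, edgeR adjusted p = 0.0116). HOXC5, HOXC6 and HOXC8 fell by 2.55, 1.53 and 2.21. HOXB9 went from 12.9 and 7.04 CPM to 2.34 and 3.8 CPM, a fall by 1.51 (SE 0.42, edgeR adjusted p = 0.0125). HOXB7 alone rose, from 7.88 and 9.76 CPM to 10.4 and 14.5 CPM, by 0.73 (SE 0.27, edgeR adjusted p = 0.0498), and this call was lost without any one of the 4 libraries, with predicted doublets removed and with the class by majority. The central genes HOXB6 and HOXB8 and the posterior gene HOXA10 differed between the OA replicates: HOXA10 stood at 1.84 and 6.85 CPM with OA and at 5.31 and 6.89 CPM in controls, and HOXB8 at 1.64 and 6.66 CPM against 4.84 and 5.22 CPM. Among related genes 5 of 9 cofactors fell, MEIS1, MEIS3, PBX3 and PKNOX2 among them, no ParaHox gene of 3 passed (CDX2 0.29, SE 0.27), and HOXA-AS2 (by 2.92), HOXA-AS3, HOTAIRM1 and HOXB-AS1 fell of 10 cluster noncoding RNAs. Of 10 retinoic acid genes ALDH1A2 and RDH10 rose, by 2.81 and 2.08, and 3 fell, and of 19 Polycomb and trithorax genes 1 rose and 5 fell, EZH2 by 1.32 and CBX2 by 1.81 among them.

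Collagen-positive cells of the OA libraries were too few for the test under the first rule, so each cell was also put in the class whose marker had more UMIs, a rule chosen after the data were seen. This gave 164 and 107 collagen cells with OA and 2545 and 1559 in controls, and 5 of 32 tested members fell and none rose (16.1% of all genes called, 8.07% lower). HOXA10 went from 19.3 and 19.1 CPM to 3.25 and 6.25 CPM, or from 298 and 426 UMIs to 6 and 6. HOXD11 went from 16.4 and 12.6 CPM to 4.33 and 4.17 CPM, and HOXB4 from 19.1 and 27 CPM to 14.1 and 9.37 CPM (edgeR adjusted p = 0.0492). HOXA11 went from 11.5 and 14 CPM to 0.541 and 1.04 CPM, the latter resting on 1 UMI in each OA library. HOXB9 stood at 5.17 and 4.27 CPM in controls and had no UMI in the much smaller sums of the OA libraries. The HOXB4 call was lost without any one of the 4 libraries, those of HOXA10, HOXD11 and HOXB9 were lost without at least 1 of them, and that of HOXA11 held in all 4 cases. The members' median log2 change was -1.36, against -0.12 over all genes, and DESeq2 called 4. Leaving out OA control replicate 1 gave 2 calls, and leaving out OA replicate 1 gave 1.

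Of the collagen cells by majority, 63.4% and 64.5% with OA and 24.3% and 25.6% in controls also had EPCAM UMIs, and their mesenchymal markers summed to 539 and 1530 CPM against 4840 and 5220 CPM. In the first-rule collagen-positive class, OA libraries had epithelial marker sums of 4230 and 3750 CPM against 964 and 1010 CPM in OA controls, and mesenchymal sums of 1250 and 1820 CPM against 6140 and 6600 CPM. In EPCAM-positive cells the gut markers summed to 1750 and 1410 CPM with OA and to 725 and 547 CPM in controls, and mesenchymal markers to 53.7 and 30.3 CPM against 47.4 and 57.4 CPM, of which LUM made up 46.5 and 23.3 CPM against 7.32 and 4.69 CPM. Hepatocyte markers changed in both directions in the same cells: AFP stood at 6140 and 4640 CPM with OA and at 646 and 854 CPM in controls, ALB at 691 and 311 CPM against 28.5 and 6.96 CPM, APOA1 at 2680 and 1690 CPM against 490 and 555 CPM, and SERPINA1 at 4570 and 6530 CPM against 14400 and 13700 CPM. Their part in the HOX changes was not tested. Leaving out either OA control replicate 1 or OA replicate 1 brought the EPCAM-positive count to 7, and the calls of HOXA2, HOXB9, HOXC5, HOXC6, HOXC8 and HOXC9 were each lost without at least 1 library.

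The ULA groups ask how the code changed from day 21 to day 34. In collagen-positive cells all HOX genes stood at 521, 470 and 514 CPM at day 21 and at 515 and 443 CPM at day 34, and paralogues 9 to 13 held 41.2%, 42.4% and 39.2% of HOX UMIs at day 21 and 53.9% and 51.4% at day 34. The posterior genes did not move together: HOXA10, HOXC11 and HOXD13 rose and HOXB9 fell, while HOXA13 stood at 38.2, 43.1 and 44.1 CPM against 36.8 and 29.1 CPM and HOXD10 at 16.4, 13.8 and 16.7 CPM against 13 and 11.3 CPM, with neither called. Of 34 tested members 15 were called, 3 higher and 12 lower, where 19.4% of all genes were called, 11.5% higher and 7.94% lower. Members had a median log2 fold change of -0.36 and all genes one of 0.01, and DESeq2 called 17.

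HOXA10 stood at 41.2, 35.3 and 37.6 CPM at day 21 and at 86.9 and 73.6 CPM at day 34, a rise of 0.96 log2 units (SE 0.16, edgeR adjusted p = 0.00697). HOXD13 went from 18.2, 17.2 and 18.9 CPM to 30.5 and 26.8 CPM, a rise of 0.54 (SE 0.16, edgeR adjusted p = 0.0453), and HOXC11 from 0.435, 0.286 and 0.342 CPM to 1.76 and 3.86 CPM. All day 34 values of these 3 posterior genes were above all day 21 values. HOXC11, at or below 0.435 CPM at day 21, probably passed the filter on low counts through its day 34 values. Its call could then only be higher, also where it held with libraries left out. HOXA3 fell from 18.9, 20.4 and 22.2 CPM to 12.7 and 9.07 CPM, by 1.03 (SE 0.21, edgeR adjusted p = 0.0137), and HOXA7 from 18.5, 18.1 and 20 CPM to 10.5 and 10.9 CPM, by 0.94. HOXA2 and HOXA4 fell by 0.94 and 1.09. HOXB8 fell from 14.8, 13.7 and 14.9 CPM to 6.22 and 8.37 CPM, by 1.12 (SE 0.19, edgeR adjusted p = 0.00791), HOXB5, HOXB6 and HOXB9 fell by 0.69 to 0.76, and HOXC4, HOXC5 and HOXD8 fell by 0.87 to 2.27. HOXB2 (39.4, 28.3 and 29.7 CPM against 45.8 and 32.6 CPM) and HOXD11 (40.5, 37.7 and 33 CPM against 44.7 and 27.6 CPM) overlapped between the days. With the class by majority the calls of HOXA10, HOXD13 and HOXA4 were lost, and of the calls named here only that of HOXC11 held with every library left out in turn. In the same cells epithelial markers summed to 940, 973 and 739 CPM at day 21 and to 770 and 2820 CPM at day 34, squamous markers to 0.532, 0.501 and 0.685 CPM and to 38.6 and 807 CPM, and mesenchymal markers to 2380, 2230 and 2310 CPM and to 3280 and 2050 CPM. The day 34 libraries thus differed from each other in these markers, whose part in the HOX changes was not tested.

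**Figure D5:**
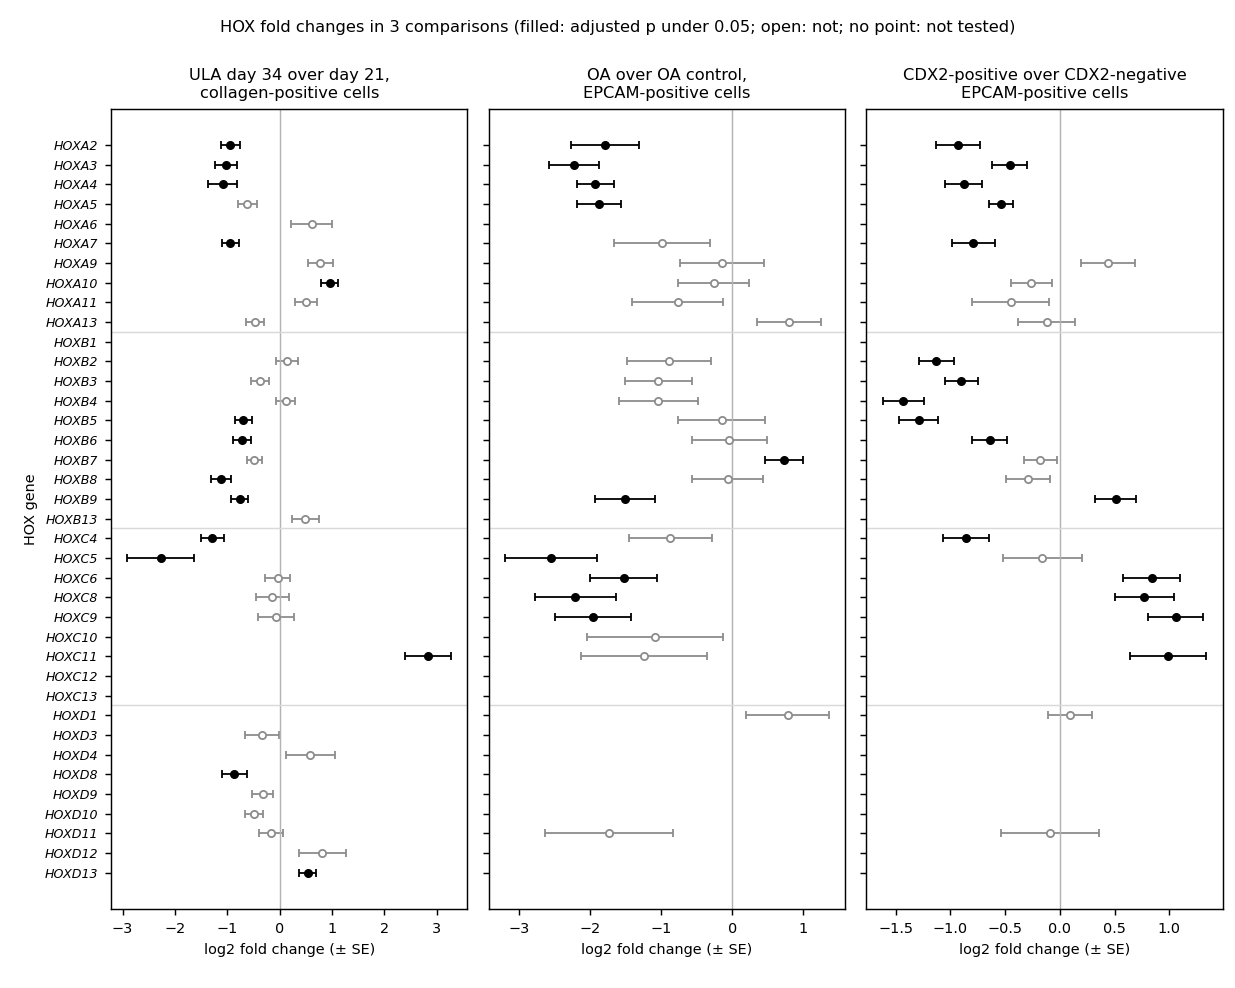
Log2 fold change with SE of HOX genes between ULA days in collagen-positive cells (left), between OA and its control in EPCAM-positive cells (middle) and between CDX2-positive and CDX2-negative EPCAM-positive cells (right); filled points passed an adjusted p of 0.05. At day 34 HOXA10, HOXC11 and HOXD13 are to the right and HOXA2 to HOXA4 to the left, OA gives HOXA2 to HOXA5 between -2.23 and -1.79, and CDX2-positive cells have HOXC6, HOXC8, HOXC9 and HOXC11 to the right and HOXB2 to HOXB6 to the left.

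Of the lists, 5 of 10 retinoic acid genes rose in collagen-positive cells by day 34, among them CRABP1 (2.24) and CYP26B1 (2.39), and CRABP2 (by 1.40) and RARB (by 0.68) fell. HOTAIR, HOTTIP and HOXA11-AS, noncoding RNAs beside posterior HOXC and HOXA genes, rose by 2.51, 0.94 and 0.75, and HOXA-AS2 fell by 1.14, of 12 tested. None of 9 cofactors passed. In whole libraries 12 of 37 members were called, 3 higher and 9 lower (17.5% of all genes, 9.60% higher and 7.91% lower), with medians of -0.01 and 0.02 and 16 called by DESeq2. HOXA10, HOXC11 and HOXC13 rose and HOXA2, HOXA3, HOXB1, HOXB5, HOXB6, HOXB8, HOXB9, HOXC4 and HOXC5 fell. HOXB1 passed the filter on low counts through its day 21 values, so its call could only be lower. In collagen cells by majority it had 11, 13 and 8 UMIs at day 21 and 0 and 1 at day 34.

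EPCAM-positive cells were 23 and 747 at day 34 under the first rule, so the majority rule was used, which gave 121 and 2138 cells against 2222, 1157 and 2014 at day 21. Of 28 tested members 5 were called, 3 higher and 2 lower (15.1% of all genes, 8.19% higher and 6.91% lower), with medians of -0.13 over members and -0.00 over all genes and 5 called by DESeq2. HOXD13 stood at 0.157, 0.0456 and 0.216 CPM at day 21 and at 0.986 and 1.88 CPM at day 34, HOXD8 at 0.179, 0.137 and 0.108 CPM against 2.46 and 1.56 CPM, and HOXC13, a hair and nail gene, at 0.246, 0.274 and 0.162 CPM against 0.986 and 1.62 CPM. All 3 were higher in both day 34 libraries, but day 34 replicate 1 held only 2 UMIs of HOXD13, 5 of HOXD8 and 2 of HOXC13. They passed the filter on low counts through their day 34 values, so a call of these genes could only be higher. HOXD10, at 0.224, 0.32 and 0.351 CPM at day 21 and 0 and 0.519 CPM at day 34, was not tested. The calls of HOXC13, HOXD13 and HOXB6 were lost when a library was left out, with edgeR adjusted p of up to 0.34, 0.286 and 0.156. HOXA3 fell from 13.6, 13.3 and 13 CPM to 4.93 and 6.42 CPM, by 1.37 (SE 0.21), and HOXB6 fell by 0.85 (SE 0.24).

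The difference between day 34 and day 21, in which age and dissociation go together, itself differed between the classes under the majority rule for 5 of 37 members, all with a lower effect in collagen cells (11.6% of all genes called, 3.27% in this direction): HOXD8 by 4.20, HOXD13 by 3.12, HOXD11 by 2.09, HOXB5 by 0.70 and HOXB7 by 0.53 on the log2 scale. All but the HOXD8 call were lost without at least 1 library. The median was -0.53 over members and 0.06 over all genes, and DESeq2 called 5. Without ULA day 34 replicate 2 the HOXD11 value was 0.22, of the other sign. Of the EPCAM cells by majority, 51.3%, 45.9% and 41.1% at day 21 and 81% and 65.1% at day 34 also had collagen UMIs. In these cells mesenchymal markers summed to 319, 234 and 223 CPM at day 21 and to 176 and 182 CPM at day 34, and squamous markers to 9.52, 7.76 and 6.84 CPM and to 148 and 1430 CPM. Hepatocyte markers in them summed to 4000, 5540 and 4340 CPM and to 1870 and 3000 CPM, and pluripotent or germ cell markers to 94.4, 233 and 93.8 CPM and to 128 and 44.6 CPM, which overlap. In first-rule EPCAM-positive cells mesenchymal markers summed to 29, 28.8 and 33.6 CPM at day 21 and to 170 and 119 CPM at day 34, squamous markers to 0.566, 0.542 and 0.6 CPM and to 138 and 1120 CPM, and gut markers to 736, 648 and 724 CPM and to 127 and 279 CPM. There AFP stood at 1110, 1240 and 1290 CPM at day 21 and at 130 and 404 CPM at day 34, and FGB at 328, 377 and 386 CPM against 15.8 and 109 CPM. Their part in these changes was not tested.

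Counts in the ULA comparison moved with single libraries. Without day 21 replicates 1, 2 and 3 in turn, the collagen-positive count was 2, 8 and 7, the whole-library count 2, 3 and 2, the EPCAM-positive count 3, 4 and 3, and the count for the difference between classes 2, 2 and 2. Without day 34 replicates 1 and 2 these 4 counts were 18 and 18, 15 and 22, 6 and 6, and 13 and 1.

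EPCAM-positive cells with and without a UMI of CDX2 were compared within 17 libraries to see whether the HOX code followed this hindgut gene. These are the libraries with at least 50 cells of both kinds, so both ULA day 34 libraries were left out here. In the fit within libraries, CDX2-positive cells had lower levels of anterior and central HOXA and HOXB genes. HOXC6, HOXC8, HOXC9, HOXC11 and HOXB9 were fitted as higher, though not in every library. Of 26 tested members 16 were called, 5 higher and 11 lower, where 38.6% of all genes were called, 18.4% higher and 20.1% lower. The median log2 fold change was -0.28 over members and -0.02 over all genes, and DESeq2 called 15.

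HOXB4 showed the largest fall of these 16, with a range of 0.166 to 38.8 CPM (median 2.89) in CDX2-positive and 1.74 to 70.7 CPM (median 9.5) in CDX2-negative cells, lower in 17 of 17 libraries and by 1.43 log2 units (SE 0.19, edgeR adjusted p = 7.94e-06). HOXB5 was lower by 1.29 (SE 0.18) in 16 of 17 libraries, HOXB2 by 1.13 (SE 0.16) in 16 of 17 and HOXB3 by 0.90 (SE 0.15) in 15 of 17. HOXA2 was lower by 0.93, HOXA4 by 0.88, HOXA7 by 0.79, HOXA5 by 0.54 and HOXA3 by 0.46, and HOXC4 and HOXB6 by 0.86 and 0.64. HOXC9 was higher by 1.06 (SE 0.25, edgeR adjusted p = 0.00186) in 13 of 17 libraries, with medians of 1.05 and 0.41 CPM. HOXC11 was higher by 0.99 (SE 0.35), HOXC6 by 0.84 (SE 0.26), HOXC8 by 0.77 (SE 0.27) and HOXB9 by 0.51 (SE 0.19), the last in 10 of 17 libraries and with -1.08 in the TGFB1 experiment alone. HOXC6 was higher in 11 libraries and lower in 6, and its median was lower, at 0.986 against 1.22 CPM. HOXC8 had close medians of 0.293 and 0.266 CPM, and was higher in 11 libraries and lower in 5. HOXC11 had medians of 0.109 and 0 CPM, highest values of 1.49 and 0.542 CPM, and only 49 and 27 UMIs over all libraries. It probably passed the filter on low counts through CDX2-positive cells, and its call could then only be higher. The calls of HOXC11, HOXC8 and HOXB9 were each lost without at least 1 library. HOXA10, HOXA11 and HOXA13 did not pass, with estimates of -0.26, -0.45 and -0.12, nor did HOXB7 (-0.18, 95% interval -0.49 to 0.14).

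Among related genes, 6 of 9 cofactors were lower in CDX2-positive cells (MEIS2 by 0.58, PBX3 by 0.94) and none higher, and besides CDX2 itself CDX1 (1.60, SE 0.14) and PDX1 (0.50, SE 0.06) were higher. Of 10 retinoic acid genes 4 were higher and 3 lower, of 19 Polycomb and trithorax genes 1 and 2, and of 10 cluster noncoding RNAs 1 and 3. CDX2-positive cells were deeper in all 17 libraries, with a median UMI count 1.05 to 4.03 times that of CDX2-negative cells, and cell type markers also moved with the split. Gut markers other than CDX2 summed to a median of 485 CPM in CDX2-positive and 286 CPM in CDX2-negative cells. This sum was higher in CDX2-positive cells in 17 of 17 libraries, though OLFM4, which is part of it, was lower in 14. Of the hepatocyte markers, APOA1, TTR and FGB were higher in 17 libraries, AFP in 14 and ALB in 12, and SERPINA1 was lower in 15. Their sum (medians 11100 and 18700 CPM) was lower in 11 libraries and higher in 6. Mesenchymal markers together (medians 34.5 and 65.3 CPM) were lower in 13 libraries, although LUM by itself was higher in 13. Summed squamous markers (1.32 and 4.1 CPM) were lower in 16, neural markers (104 and 115 CPM) in 17, and pluripotent or germ cell markers (8.73 and 21.8 CPM) in 16. Among the latter, POU5F1 stood in the ULA day 21 libraries at 0.74, 2.52 and 2.89 CPM in CDX2-positive and at 214, 586 and 155 CPM in CDX2-negative cells. The part of depth and of these markers in the HOX differences was not tested. In the TGFB1 and PA experiments alone 4 and 6 members were called.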

How the data were processed

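The authors deposited filtered matrices of UMI counts per gene and cell, made with Cell Ranger 3.0.2, bcl2fastq and Scanpy on GRCh38, per the submitters' processing notes. Genes were joined by Ensembl identifier, and 1 further identifier of HOXC5 and the list genes HOXC-AS2 and HOXC-AS3 were not matched. Counts of kept cells were summed per library and class (at least 50 cells) in Python 3.11.15 with pandas 2.3.3, numpy 2.4.6, scipy 1.17.1 and matplotlib 3.10.9. Groups were compared with edgeR 4.0.16 (R 4.3.3; TMM, filterByExpr, glmQLFTest, adjusted p under 0.05 over all genes), with the shaker libraries in 1 fit and the ULA libraries in another, after a test on simulated data. The SE is the log2 fold change divided by the square root of the quasi-likelihood F. Alternatives were DESeq2 1.42.0, other normalization, no filter on low counts, a stricter cell filter (1000 genes, 10% mitochondrial), removal of the top doublet scores (0.8% per 1000 barcodes, Scrublet in scanpy 1.11.5), each library left out, a replicate block, and the class by majority of marker UMIs, which was chosen after the data were seen. Libraries held 7476533 to 92522222 UMIs. Gene positions came from GENCODE 44. Members and lists were chosen with earlier results of these data known. Counts within lists are to be read beside the share of all genes called in the same test. Every called member was to be named or, above 12, the 12 with the highest mean CPM. Further members and list genes were named after their values were seen. Some single-gene results are not reported here, though counts and medians include them.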

Additional observations from a re-analysis of the deposited data

Results flagged for a closer look

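The effect of TGFB1 differed between the classes in the test of the difference itself for 9 members. The log2 effect in collagen-positive cells minus that in EPCAM-positive cells was 1.93 for HOXB2, 1.74 for HOXB3, 1.89 for HOXB4, 3.07 for HOXB5, 2.72 for HOXB6, 1.27 for HOXB7, 2.35 for HOXB8, 2.91 for HOXC5 and -3.11 for HOXA10. The calls of HOXB3, HOXB7, HOXB8, HOXC5 and HOXA10 were each lost without at least 1 library.

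The change from ULA day 21 to day 34 differed in the same test, with the class by majority, for 5 members: the difference was -4.20 for HOXD8, -3.12 for HOXD13, -2.09 for HOXD11, -0.70 for HOXB5 and -0.53 for HOXB7. All but the HOXD8 call were lost without at least 1 library. Groups held 2 or 3 libraries, so no single library was tested as standing apart.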

How the results depend on the processing

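Over all alternatives, 2113 of 2414 values of called members kept their sign and stayed past the threshold, 296 were no longer past it and 5 changed sign. Of 270 alternative counts of called members 236 were within 1.5 times the main count. The signs that changed were those of HOXB8 in the ULA experiment alone (-0.51), HOXA5 in the TGFB1 experiment alone (-0.28) and HOXC11 in the OA experiment alone (-0.13), all between the classes, of HOXB9 between CDX2-positive and CDX2-negative cells in the TGFB1 experiment alone (-1.08), and of HOXD11 in the ULA difference between classes without day 34 replicate 2 (0.22, against -2.44 without day 34 replicate 1). Without a filter on low counts, 9 members were called for OA in collagen cells by majority and 9 for ULA in EPCAM cells by majority. With the stricter cell filter 2 were called for the ULA difference between classes. The CDX2 comparison gave 4 calls in the TGFB1 and 6 in the PA experiment alone. The causes were not tested.

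Replicate numbers were shared between groups, and nothing in the labels makes them a pairing. With a replicate block the ULA counts were 0 in whole libraries, 7 in collagen-positive cells and 1 in EPCAM cells by majority. The TGFB1 counts were 7 in whole libraries, 0 in collagen-positive and 10 in EPCAM-positive cells, and the OA counts 20 in whole libraries, 5 in collagen cells by majority and 9 in EPCAM-positive cells. The block left the PA and OA control comparisons at 0.

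With each library left out in turn, the count ranged from 29 to 30 between the classes and from 14 to 16 for CDX2. For TGFB1 it ranged from 3 to 5 in whole libraries, 0 to 2 in collagen-positive cells, 5 to 11 in EPCAM-positive cells and 4 to 9 for the difference between classes. For OA it ranged from 16 to 22 in whole libraries, 1 to 5 in collagen cells by majority and 7 to 13 in EPCAM-positive cells. For ULA it ranged from 2 to 22 in whole libraries, 2 to 18 in collagen-positive cells, 3 to 6 in EPCAM cells by majority and 1 to 13 for the difference between classes. For PA in whole libraries, each class and the difference between classes, and for OA control against untreated organoids in whole libraries and each class, it stayed from 0 to 0. The PA tests in collagen-positive cells and of the difference between classes gave no value under the stricter cell filter. A lone library left in a group was assumed to vary like the others. Members under about 1 CPM rest on few UMIs per library, which limits their precision.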
